A study of Homo sapiens with 10 samples.

Results

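The response to wild-type interferon gamma (IFNG) of A549, a cell line from a human lung carcinoma, was described from 4 of the 10 libraries of the series: 2 libraries of cells given wild-type IFNG for 48 h and 2 of untreated cells, each pair lettered A and B. The labels give the concentration as 62 nM with a stray decimal point, and a further digit could have been lost. The series calls the letters biological replicates, and the labels do not say whether they are separate cultures, so the tests measure the spread between these libraries. The other 6 libraries are cells given the analogues GIFN2, GIFN3 and GIFN4, and they enter below through the estimate of the spread and the recovery of read numbers. RNA was amplified with a panel of primers for the human transcriptome and sequenced on the Ion S5 XL system, so each value stands for the reads of 1 amplified target.

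IFNG is a cytokine made mainly by T cells and natural killer cells. It binds the receptor chains IFNGR1 and IFNGR2, which activate the kinases JAK1 and JAK2 and through them change the transcription of many target genes. In epithelial cells it is known for raising antigen presentation, chemokines and antiviral defences and for slowing growth.

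The deposited tables do not allow a gene to be named. Values in wild type A never rose from a line to the next, while the names beside them stood in alphabetical order at 96.8% of the first 7000 steps and at 52.3% of the others, so names and values of a line were ordered by different keys. The defining markers of A549 cells and the known targets of IFNG could therefore not be looked up. Lines matched between the files, and a line is called here by its position among the 20812. A position near 1 or 20812 follows from the value in wild type A, by which the tables are sorted.

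Each value is a log2 ratio of the wild type library to the untreated library of its letter. In A 12835 lines held a value other than 0 and in B 12994 did. Another 7635 lines were at 0 in both letters, 342 in A alone and 183 in B alone. Absolute read depth is not recorded in the tables. Apart from 0, the commonest value was 0.182 in A (209 lines) and -0.084 in B (202 lines), taken here as the value of a line with as many wild type as untreated reads. Wild type A then had 0.881 times the reads of untreated A, and wild type B had 1.06 times those of untreated B.

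Wild-type IFNG changed many lines by little and a few by very much. Of 13276 lines tested, 4710 differed from untreated cells (35.5%; limma, Benjamini-Hochberg adjusted p under 0.05), 2066 of them higher (15.6%) and 2644 lower (19.9%). The median change of a higher line was 0.85 on the log2 scale and that of a lower line -0.89. At least 2-fold, 788 lines rose (5.94%) and 1094 fell (8.24%), so 38.1% of the rises and 41.4% of the falls reached that size. The smallest change that passed was 0.33 among the rises and -0.34 among the falls. The median standard error of a line was 0.17. Standard errors here and below come from the limma fit, which pools the spread over all 10 libraries and over lines. They are not the spread of the 2 letters of a line. In RNA of whole cultures, more RNA in each cell and more cells that carry it cannot be told apart.

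The middle of the distribution was narrow and alike in both letters. Over lines not at 0 the 25th and 75th percentiles were -0.57 and 0.35 in A, with a median of -0.09, and -0.46 and 0.40 in B, with a median of -0.03. The 5th and 95th percentiles were -1.43 and 1.20 in A and -1.32 and 1.18 in B. The tails then parted: the lowest value was -5.26 in A and -4.96 in B, whereas the highest was 9.97 and 9.06.

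**Figure D1:**
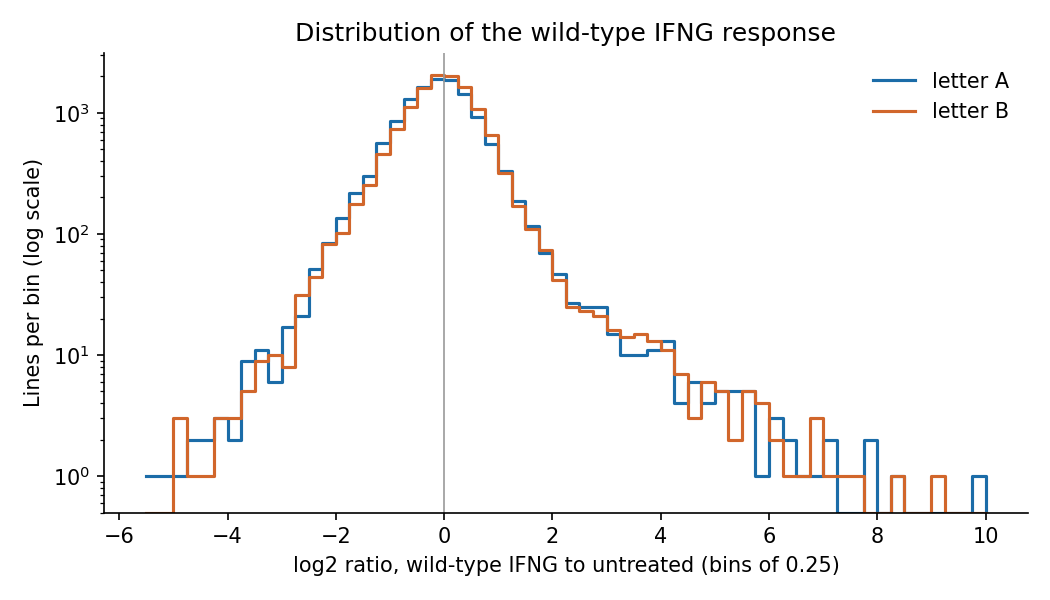
Number of lines per bin of 0.25 log2 units (log scale) against the log2 ratio of wild-type IFNG to untreated cells, for letter A (blue) and letter B (orange), lines at 0 left out; an empty bin drops to the axis. Both letters end near -5 on the left and reach 9.97 in A and 9.06 in B on the right.

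Calls followed the size of the change. Among lines with a fitted change above 0 and under 0.5, 7.14% were called, and among those from 0.5 to 1, 67.5%. From 1 to 2 the share was 96.6% (574 of 594 lines), and all 214 lines that rose by 2 or more were called. On the other side 6.01% of the falls of up to 0.5 were called, 65.5% of those from 0.5 to 1 and 93.8% of those from 1 to 2 (916 of 977), and all 178 lines that fell by 2 or more. All 4710 called lines had both letters on the side of the call. The fitted change is the mean of the letters and their gap enters the spread. Calls therefore favour large changes and letters on the same side, and these shares are no separate support.

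Which direction held more lines depended on the size looked at. In A 5719 lines were above 0 and 7116 below, so 44.6% were higher, and in B 6276 and 6718, so 48.3% were. At 1 or more in size the share of higher lines fell to 39.3% in A (929 against 1436) and 42.7% in B (891 against 1196). At 2 or more it was 51.7% in A (226 against 211) and 52.8% in B (224 against 200). At 3 or more it was 72.9% (102 against 38) and 76.4% (113 against 35), and at 4 or more 84.8% (56 against 10) and 87.3% (55 against 8). In the deposited values both letters thus showed more falls among moderate changes and more rises among large ones.

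**Figure D2:**
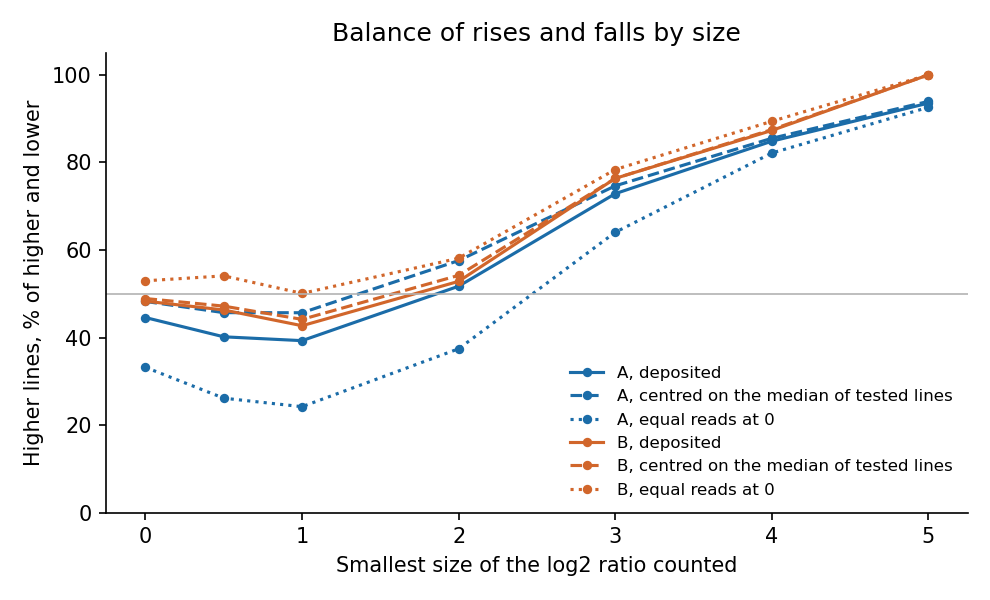
Share of higher lines among higher and lower lines (%) against the smallest size of log2 ratio counted, for letter A (blue) and B (orange) with the deposited values (solid), each library centred on its median (dashed) and equal read numbers set at 0 (dotted); the grey line marks 50%. With the deposited values both letters lie below the line at 1 (39.3% and 42.7%) and above it from 2 on (51.7% and 52.8%).

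The excess of falls was larger in A than in B and moved with the zero point. With each library centred on its median over the tested lines (-0.066 in A and -0.011 in B), 45.7% of the lines of 1 or more in size were higher in A and 44.1% in B. With equal read numbers set at 0, which shifts A by 0.182 and B by -0.084 and leaves the depth uncorrected, the shares were 24.2% in A and 50.1% in B. Among called lines 43.9% were higher (95% exact binomial interval 42.4% to 45.3%, counting error only). The interval takes lines as independent, which lines of the same libraries are not, and holds no spread between libraries. The share was 47.1% with median centring and 37.9% with the most frequent value at 0, both outside the interval. Without wild type A 2239 lines were called higher and 2295 lower, and without wild type B 2128 and 3226. Most of the lead of the falls over the rises among called lines was thus lost without wild type A, the library with fewer reads than its untreated partner. The part that relative depth plays in this was not tested. Where the balance turned also depended on the zero point. With equal read numbers at 0 the share of higher lines at 2 or more was 37.4% in A, and in B it lay at 50.1% or above at every size, so B showed no excess of falls. At 3 or more rises outnumbered falls in both letters at each zero point, with 64.0% to 74.6% higher in A and 76.4% to 78.4% in B.

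The largest rises were seen in both letters. Line 1 had a log2 ratio of 9.97 in wild type A and 9.06 in wild type B, against 0 in the untreated libraries that serve as the reference. This was the largest change fitted, at 9.51 ± 0.20 (SE, n = 2; adjusted p = 5.26e-06, limma), or 732-fold. Line 2 had 8.29 and 8.30 (fitted 8.30 ± 0.17), the closest pair of values among the 10 largest rises. Line 3 had 7.99 and 7.51, line 4 had 7.90 and 7.44, and line 5 had 7.20 and 7.02. Each of these rises was far larger than the gap between its letters, which was at most 0.91 for these lines.

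The other 5 of the 10 largest rises were lines 6 to 10. Line 6 had 7.18 in A and 6.90 in B, and line 8 had 6.52 and 6.91. Line 10 had 6.35 and 6.82 and line 9 had 6.42 and 6.57. Line 7 differed most between the letters, with 6.82 in A and 5.75 in B, a gap of 1.07. Its fitted change was 6.29 ± 0.26 (SE of the fit, n = 2, adjusted p = 2.66e-05, limma), and this SE is not the spread of its letters. Over the 10 lines the letters differed by a median of 0.42, and 6 of them were higher in A and 4 in B.

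These rises cannot rest on few wild type reads. If no library of a ratio stands for fewer than 10 reads, as the crowding of ratios on that number shows further on, the ratio of line 1 needs at least 8828 reads in wild type A and 5664 in wild type B. For the 10 lines the least number was 721 reads in A and 570 in B. The untreated reads of these lines could not be recovered, so whether a line was absent or merely low in untreated cells is not known, and where the untreated library stood at the floor the true rise would be larger than the one given.

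The largest falls were smaller. Line 20812 had a log2 ratio of -5.26 in A and -4.91 in B, fitted at -5.09 ± 0.27 (SE, n = 2; adjusted p = 7.68e-05, limma), which is 34.0-fold. Line 20811 had -5.07 and -4.96, and line 20806 had -4.48 and -4.67. Line 20808 had -4.56 and -4.34, line 20810 had -4.76 and -4.14, and line 20804 had -4.18 and -4.85. These 6 lines kept their fall within 0.67 between the letters.

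Of the other 4, line 20807 had -4.48 in A and -3.95 in B, line 20803 had -4.17 and -3.87, and line 20801 had -3.78 and -4.07. Line 20809 had -4.62 and -3.29 and thus the widest gap, 1.33, with the highest adjusted p of the 10 (0.00244, limma). In 7 of the 10 lines the fall was larger in A. Lines 20811, 20804 and 20810 carried a sign of few reads, since an analogue had exactly the value of wild type A. Their falls may stop at the floor and stand for larger ones. The reads of these 10 lines could not be recovered, so whether the other falls stop at the floor is not known. The least number of untreated reads that these 10 falls need was 156 in A and 92.4 in B.

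For lines with few reads the read numbers themselves could be recovered from the steps of the ratios. Line 40 went from 14 untreated to 278 wild type reads in A and from 15 to 327 in B, which gave log2 ratios of 4.49 and 4.36. This was the largest rise with all 4 read numbers recovered and above 10, at 4.43 ± 0.21 (SE, n = 2; adjusted p = 5.25e-05, limma). Line 84 went from 17 to 144 reads and from 13 to 159, with ratios of 3.26 and 3.53. Line 95 went from 25 to 190 and from 18 to 236, with 3.11 and 3.63, and line 110 from 24 to 158 and from 14 to 143, with 2.90 and 3.27. In these 4 lines the ratios of the letters differed by at most 0.52.

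Line 140 differed more, from 27 to 149 reads in A and from 12 to 185 in B, with ratios of 2.65 and 3.86. Its wild type reads were close in the letters, and its untreated reads were 27 and 12.

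Among falls with recovered reads, line 20742 went from 93 untreated to 14 wild type reads in A and from 88 to 16 in B, with log2 ratios of -2.55 and -2.54. It was the largest such fall, at -2.55 ± 0.12 (SE, n = 2; adjusted p = 4.73e-05, limma). Line 20746 went from 83 to 12 and from 74 to 16, with -2.61 and -2.29, and line 20757 from 98 to 13 and from 70 to 17, with -2.73 and -2.13. Line 20720 went from 89 to 15 and from 80 to 18, with -2.39 and -2.24, and line 20628 from 66 to 14 and from 65 to 12, with -2.06 and -2.52. Without untreated B the call of line 20720 was lost (adjusted p = 0.0648, limma). Untreated numbers above 100 were not tried, so a large fall could be recovered only where it ended near the floor. All 5 lines ended between 12 and 18 wild type reads. Wild type numbers had no such cap, but the chance of a match grows with the read number, so high ones were harder to recover. These falls therefore cannot be set against the rises with recovered reads in size, and neither list is complete.

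The letters agreed well for large changes and poorly for small ones. Wild type A and B share no library, untreated ones included, so their agreement owes nothing to a common denominator. Over the 12652 lines not at 0 in either, which are no independent replicates, Pearson's r was 0.867 and Spearman's rho 0.784. The values lay on the same side of 0 in 79.4% of the lines. This share was 45.0% where the mean of the letters was under 0.25 in size, 89.0% from 0.25 to 0.5, and 98.4% from 0.5 to 1. Of the 808 lines with a mean of at least 1, all had both letters above 0, and of the 1154 with a mean of at most -1, 1153 had both below. The mean uses both letters and so favours agreement.

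**Figure D3:**
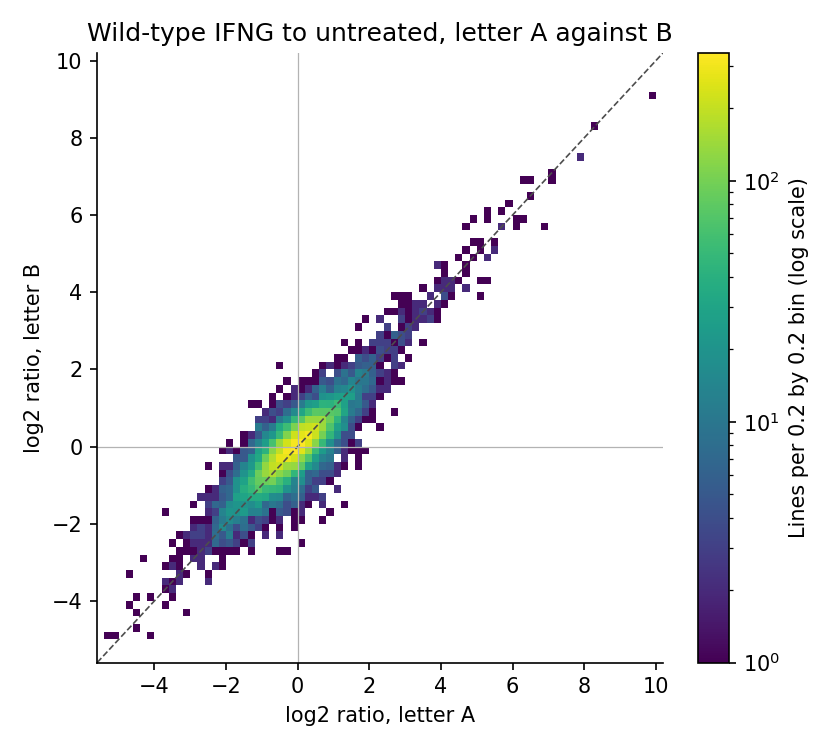
Number of lines per 0.2 by 0.2 bin (colour, log scale) by log2 ratio of wild-type IFNG to untreated cells in letter A (x axis) and letter B (y axis), lines at 0 in either letter left out; the dashed line marks equal values. The 12652 lines lie along the dashed line (r = 0.867), with a cloud around 0 and a long arm of rises.

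A choice in 1 letter with the measurement in the other avoids this. Of the 929 lines at 1 or more in A, 906 were above 0 in B (97.5%), where their median was 1.31 against 1.41 in A, and 66.6% reached 1 in B too. Of the 886 lines at 1 or more in B and not at 0 in A, 862 were above 0 in A (97.3%), with medians of 1.43 in B and 1.35 in A. All 226 lines at 2 or more in A rose in B, with medians of 2.88 and 2.96. Rises thus kept their direction and nearly their size from A to B and from B to A.

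Falls kept their direction about as often, and from A to B they lost more of their size. Of the 1435 lines at -1 or less in A and not at 0 in B, 1388 were below 0 in B (96.7%), but the median went from -1.36 in A to -1.10 in B, and 57.1% reached -1 in B. In the other order, 1142 of 1185 lines at -1 or less in B were below 0 in A (96.4%), with medians of -1.37 in B and -1.31 in A, and 69.1% reached -1. All 211 lines at -2 or less in A fell in B, with medians of -2.33 and -2.12. The median of A minus B was -0.12 among lines with a mean of at most -1 and 0.0035 among those with a mean of at least 1. A thus lay below B among the falls and level with it among the rises. It was also -0.07 over all lines not at 0 in either letter, and -0.071 where the mean was under 0.25 in size. A lower value in A was therefore no trait of the falls alone.

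The gap between the letters grew little with the size of the change. Its median was 0.27 over all lines, 0.26 where the mean was under 0.25 in size, 0.31 from 1 to 2 and 0.29 at 3 or more. Letters differed by 1 or more in 532 lines (4.20%). In lines with a sign of few reads this share was 14.5% (183 of 1263) and in the others 3.06% (349 of 11389). Low-read lines were those at 0 in a treated library, with a library recovered at 10 reads or with an analogue exactly equal to wild type.

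The widest gaps were in lines with few reads. Line 1007 had 0.96 in A, from 14 untreated to 24 wild type reads, and -1.79 in B, from 36 to 11. Line 4819 had 0.12 in A, from 23 to 22 reads, and -2.46 in B, from 57 to 11. Line 1753 had 0.67 in A, from 10 to 14, and -1.85 in B, from 34 to 10, and line 16617 had -0.40 in A, from 15 to 10, and 2.07 in B, from 11 to 49. Line 532 had 1.32 in A and -1.43 in B, from 28 to 11 reads there. In all 5 lines the letters lay on opposite sides of 0, with line 4819 close to it in A. None of the 5 was called (adjusted p from 0.193 to 0.954, limma). With 1 library left out, line 1753 was called lower without untreated A (adjusted p = 0.0160, limma) and line 16617 higher without wild type A (adjusted p = 0.000906, limma).

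Low read numbers were cut at a floor of 10 reads. The ratios of lines with few reads can take only the values of 1 whole number over another, and the values were crowded on the ratios that hold the number 10. In A 70 lines stood at 10 wild type over 11 untreated reads, against 14 lines at 11 over 12. In B the numbers were 72 and 16. Over the ratios up to 20 reads that cannot be reduced, those with 10 wild type reads held a mean of 47.5 lines each in A, those with 9 held 9.0 and those with 11 held 9.8. In B the means were 43.0, 5.2 and 10. Ratios with 10 untreated reads held 23.5 lines each in A and 31.5 in B, against 4.0 and 6.0 with 9 and 6.9 and 9.0 with 11.

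**Figure D4:**
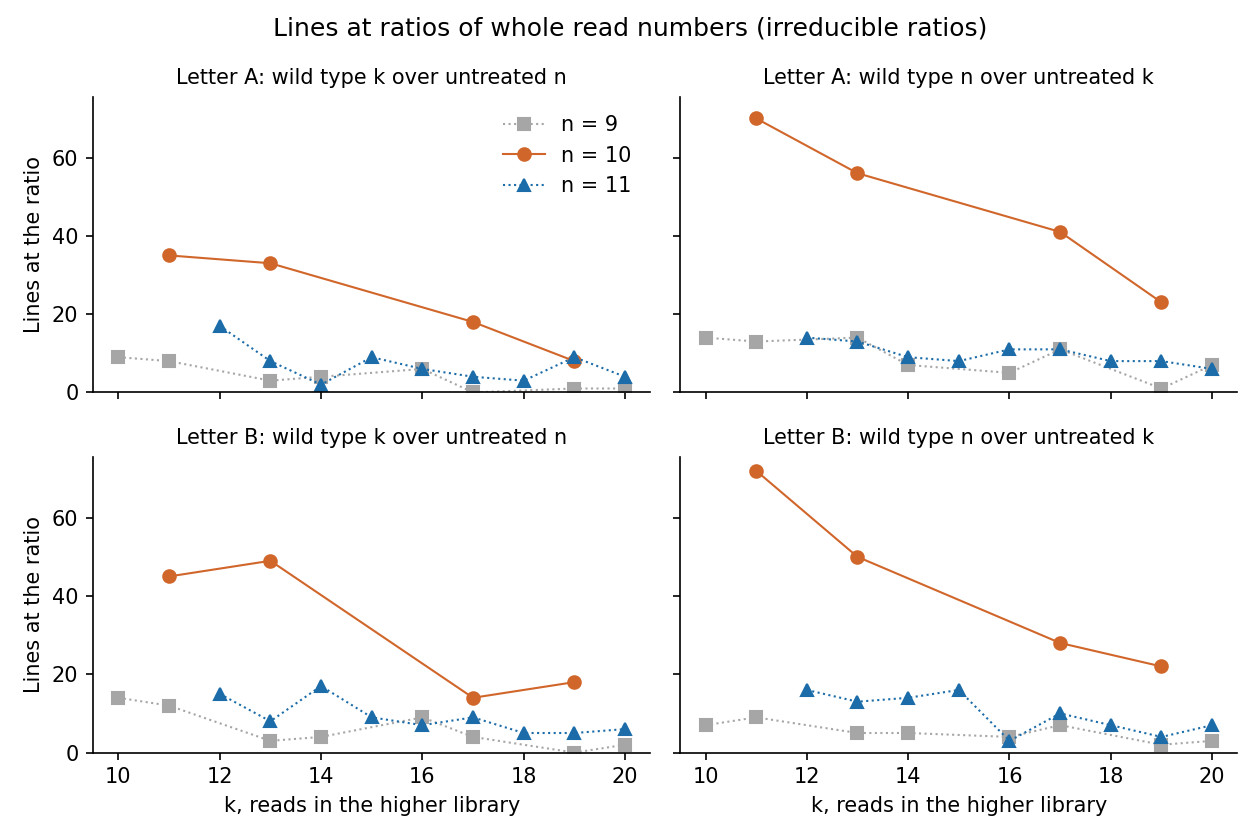
Number of lines (y axis) at the ratio of k reads in the higher library (x axis, reads) to n reads in the lower one, for n = 9 (grey squares), 10 (orange circles) and 11 (blue triangles), ratios that cannot be reduced only; the left panels show rises and the right panels falls, letter A above and B below. Ratios with 10 reads in the lower library held means of 23.5 and 47.5 lines in A and 31.5 and 43.0 in B, and those with 9 or 11 held means of at most 10.

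The lines at 0 fit the same floor. No other value within 0.003 of 0 was held by more than 13 lines, whereas 7977 lines were at 0 in A and 7818 in B. The 342 lines at 0 in A alone had a median of -0.084 in B, the value of equal reads there, and 95% of them lay within 0.99 of 0. The 183 lines at 0 in B alone had a median of 0.182 in A, again that of equal reads. A value of 0 was therefore read as 10 or fewer reads in both libraries, and such a line says nothing about a change of the transcript at this depth. This reading did not hold for every recovered line, since 26 lines in A and 16 in B were not at 0 and were recovered with both libraries at 10. The search took the lowest number that fitted, and whether these lines truly had 10 reads was not tested.

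Between the letters, the floor acted on rises and falls in different numbers. With recovered reads, 257 lines in A and 306 in B had untreated at 10 reads and wild type above, and 340 in A and 253 in B had wild type at 10 and untreated above. Untreated numbers above 100 were not tried, whereas wild type numbers had no such cap and were limited only by the chance allowed for a match. With wild type reads also held to 100 or fewer, the rises from the floor were 239 lines in A and 284 in B, so falls onto the floor were more in A and fewer in B. These classes compare read numbers with no correction for depth. Wild type A had 0.881 times the reads of its untreated partner and wild type B 1.06 times, and the part of depth in these counts was not tested. The falls onto the floor in A include lines with deposited log2 ratios up to 0.045. The rises from the floor in A reached up to 632 wild type reads, with a median of 19 reads and a median log2 ratio of 1.11. Of the 241 of them with a value in B, 204 rose there (84.6%), with a median of 0.92. Of the 316 falls onto the floor in A with a value in B, 255 fell there (80.7%), with a median of -0.71. For lines chosen in B, 223 of 252 rises (88.5%) and 166 of 219 falls (75.8%) had the same direction in A. Over all lines not at 0 in either letter, 79.4% had both letters on the same side of 0. Among lines with all 4 read numbers recovered and above 10 the share was 74.6%. The falls onto the floor thus lay near the share over all lines.

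Some lines left the floor or reached it in both letters. Untreated stood at 10 and wild type above in both letters for 144 lines, of which 123 had at most 100 wild type reads, and wild type at 10 with untreated above, at most 100 reads by the search, in both for 73. Opposite cases, with untreated at 10 in 1 letter and wild type at 10 in the other, were 9 and 18 lines. Where the 10 of these 144 and 73 lines is a number raised to the floor, the ratio is the least change and not its size. Which of them were raised and which had 10 reads is not known.

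The floor set how far a line could move. A line with 20 reads in the higher library could show no fall below -0.82 in A and -1.08 in B, and 1 with 40 reads none below -1.82 and -2.08. With 160 reads the limits were -3.82 and -4.08, and for rises 4.18 and 3.92. Among matched lines with 11 to 14 untreated reads 37.0% in A and 27.7% in B had wild type at the limit, and among those with 40 to 100 reads 3.32% and 1.98%. For rises, 23.2% in A and 29.5% in B of the lines with 11 to 14 wild type reads had untreated at the limit, and 3.45% and 3.48% of those with 40 to 100. Most matched lines with 40 or more reads were thus clear of the floor, and for lines with under 20 reads the size of a change could more often be a bound.

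Read number also went with the gap between the letters. For the 2278 lines with all 4 read numbers recovered, the SD of A minus B was 0.82 where the lowest of the 4 was 11 to 19 reads, 0.59 at 20 to 39 and 0.48 at 40 or more. Counting error alone, as independent Poisson reads would give it, makes 0.63, 0.47 and 0.36. The observed SD was thus 1.30, 1.25 and 1.32 times that of counting. Where the lowest number stood at 10, the observed SD was 0.75 and that of counting 0.76, but a number held at the floor cannot vary downwards. Lines without recovered reads, which include those with the most reads, had an SD of 0.39. Amplified reads without molecular identifiers are not independent molecules, so the counting values are the least to be met.

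**Figure D5:**
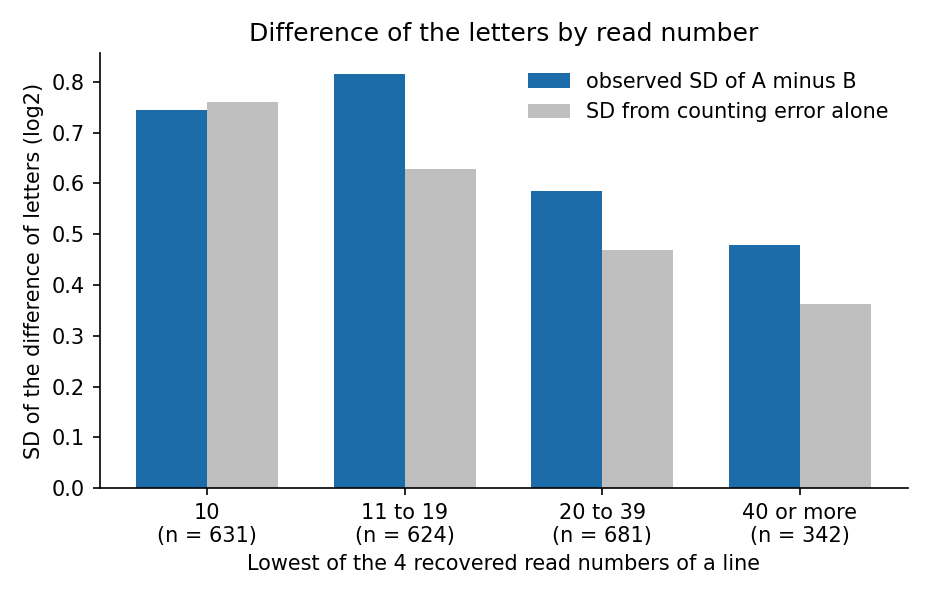
SD of the difference between letter A and letter B of the log2 ratio (y axis) for lines grouped by the lowest of their 4 recovered read numbers (x axis, number of lines below), as observed (blue) and as counting error alone would give (grey). Above the floor the observed SD fell from 0.82 to 0.48 and stayed 1.25 to 1.32 times that of counting.

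Calls did not follow the read number in a single direction. Of the 11389 tested lines with no sign of few reads 36.8% were called, against 35.5% overall. Of the 1887 with such a sign 624 were at 0 in a wild type library and none of these was called, and of the other 1263 lines 516 were (40.9%). Among lines with all 4 read numbers recovered, 46.6% were called where the lowest was 10, 33.0% at 11 to 19, 27.8% at 20 to 39 and 17.8% at 40 or more. The median size of the mean change fell along the same classes, from 0.84 over 0.62 and 0.50 to 0.34. Among the 10374 lines not recovered in both letters 3960 were called (38.2%). These classes rest on the reads that make up the ratios, so their shares are descriptions. Untreated numbers were tried only up to 100, so a recovered line with a lowest number of 40 or more could show no large fall. The decline in size and in calls along the classes is therefore partly set by the search.

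The number of calls depended on which libraries and lines entered the fit. A fit on the wild type and untreated libraries alone, with 1 residual degree of freedom, called 2923 lines (22%), 1228 higher and 1695 lower, and 2794 of these were among the 4710. At least 2-fold it called 760 rises and 1063 falls, close to the 788 and 1094 above. The same 4 libraries gave 4172 calls with low-read lines left out and 4565 with median centring, both chosen after seeing the data. Without untreated A 2614 lines were called and without untreated B 2432. With 2 libraries against 2, an exact permutation test of a single line cannot give a two-sided p below 0.333, so single lines rest on the limma model.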

How the data were processed

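The authors deposited 1 table per library whose only measurement, headed log2(DER) per the file headers, is on the log2 scale. The build named in the submitters' processing notes is hg19, and neither the counting nor the making of the ratios is described in the labels or headers. The untreated tables are 0 throughout, so the log2 values were read as ratios within a letter, with the untreated library as denominator. Tables were taken by the labels of their samples, since the comparisons in the headers do not always match them.

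Lines not at 0 in 2 or more of the treated libraries were tested with limma 3.58.1 in R 4.3.3 (group and letter over all 10 libraries, robust empirical Bayes, Benjamini-Hochberg, threshold 0.05). The letter term was included for the denominator common to a letter. Read numbers were recovered where 1 untreated number from 10 to 100 made every ratio of a letter whole within 0.0008 on the log2 scale (0.0012 for the analogues), taking the lowest such number and accepting a chance under 0.005; this gave 2939 lines in A and 2856 in B, 22.9% and 22.0% of those not at 0. Step counts used a tolerance of 0.0006. Both programs were also run on simulated data. Those runs built in a floor of 10 reads and an equal spread in every library, so they cannot test whether these hold in the data. Lines named are the 10 largest rises and falls called, the 5 largest of each with all reads recovered above 10, and the 5 widest gaps between letters. The lines, lists and tests were chosen with earlier results of these data known.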

Additional observations from a re-analysis of the deposited data

How the results depend on the processing

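The count of 4710 calls stayed within 1.5 times of itself under 9 of the 10 alternatives that left out no single library, and the exception was the fit on the 4 libraries of the comparison, with 2923 lines in all, 1228 higher and 1695 lower. That fit called 4172 lines with low-read lines left out and 4565 with median centring, both chosen after seeing the data; the cause was not tested. Leaving out 1 library gave 2432 to 5354 lines, 1125 to 2239 higher and 1307 to 3226 lower, with 678 to 928 rises and 831 to 1511 falls of at least 2-fold; the lowest total came without untreated B (2614 without untreated A) and the highest without wild type B, where the lone wild type library is assumed to vary like the other groups. The share of higher lines among called lines, 43.9%, was 42.0% in the fit on 4 libraries, 45.8% there with centring, 47.1% with median centring, 37.9% with the most frequent value at 0, 45.6% with no filter, and 39.7% to 49.4% without 1 library. The share of lines with letters on the same side, 79.4%, was 89.4% over lines of at least 0.5 in either letter and 73.7% with equal reads at 0, the latter chosen after seeing the data. The 30 lines named for their rise or fall kept their direction under every alternative that tested them and their call in all but line 20720 without untreated B. Without 1 library, lines 1007, 532, 1753 and 16617, named for their gap, ran from -1.29 to 0.46, from -0.94 to 0.83, from -1.65 to 0.46 and from -0.38 to 2.05 and so turned direction; lines 1753 and 16617 were each called once.

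Without the replicate block 5530 lines were called, 4624 of them among the 4710. The letter is a block by how the ratios are built, and the labels tie no batch to it. The gap between A and B in wild type correlated over lines with that in GIFN2, GIFN3 and GIFN4 at 0.163, 0.145 and 0.0116. The analogues' gaps correlated with each other at 0.651 to 0.704. SDs of the gap were 0.462 in wild type and 0.424 to 0.457 in the analogues. The gap of wild type thus followed those of the analogues far less than they followed each other. The letter term and the spread of the main fit draw on the analogues too, and the fit on 4 libraries, which leaves them out, called fewer lines (2923). The p-values of the main fit thus rest partly on analogue gaps that the wild type gap followed little. Ratios of a letter share the untreated library, so these correlations do not show by themselves that the letters pair the samples. Lines under about 20 reads are limited by the floor, and lines at 0 by depth.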

Other observations

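The analogue tables were built through wild type and not directly against untreated cells. Of the 146 lines at 0 in wild type A and not in GIFN2 A, 142 held whole read numbers over 10 on the scale of GIFN2 against wild type, within 0.0008 on the log2 scale, and 0 did on the scale of GIFN2 against untreated. The other 5 analogue libraries gave between 70 of 74 and 159 of 163 lines on the first scale and 0 on the second. Between 274 and 448 lines per analogue library, not at 0, held exactly the value of wild type of the same letter. The values of wild type against untreated are the first link of this chain and do not depend on the analogues.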
